A study of Homo sapiens with 2 samples.

Results

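Transcripts of 10 genes of the BCL2 family were compared between HSC-1 cells that had received control oligonucleotides (siNC) and HSC-1 cells that had received siRNA against the lncRNA LINP1 (siLINP1). The genes were taken by symbol from the 44591 genes of the deposited count table, and all 10 were found there: PMAIP1 (which encodes NOXA), BBC3 (PUMA), BCL2L11 (BIM), BID, BAD, MCL1, BCL2L1 (BCL-XL), BCL2, BAX and BAK1. HSC-1 is an established line from a human cutaneous squamous cell carcinoma (cSCC), and both conditions share the line, DMEM with serum and the transfection reagent. The labels give transfection at about 70% confluency, 6 h without serum and 24 h more after the change of medium, while the methods of the study give a higher confluency and a later harvest. Each condition had 1 library of total RNA. Hence no difference has a replicate check, no p-value was computed, and every interval covers counting error only. The sources used here do not say which of the siLINP1 oligonucleotides was sequenced, so the results stand for 1 transfection with an unnamed siRNA.

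Proteins of the BCL2 family decide whether the outer mitochondrial membrane of a stressed cell is opened. The effectors BAX and BAK1 form the pores, the pro-survival proteins MCL1, BCL-XL and BCL2 hold the effectors in check, and BH3-only proteins such as NOXA, PUMA, BIM, BID and BAD bind pro-survival proteins or activate effectors. NOXA binds chiefly MCL1, BAD binds BCL2 and BCL-XL, and PUMA and BIM bind all of the pro-survival proteins. Several BH3-only genes are known to be switched on by transcription factors of the unfolded protein response (UPR), which is why the family bears on the question of the study, namely which signaling events follow LINP1 depletion in cSCC cells.

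The reads counted on genes came to 18829544 for siNC and 15383081 for siLINP1. Counts were divided by median-of-ratios size factors of 1.08 and 0.930 to give scaled reads, and log2 fold changes were taken from these as siLINP1 over siNC. The 95% interval in parentheses is exact (Clopper-Pearson) for how a gene's reads split between both libraries. LINP1 itself, the targeted transcript, was read 167 times in siNC and 23 times in siLINP1, which is -2.65 on the log2 scale (-3.35 to -2.02). Of 19 squamous keratinocyte markers, 9 were under 1 RPKM (reads per kilobase of gene length, scaled to the library total) in both libraries, among them KRT5 at 0.738 and 0.677 RPKM and TP63 at 0.0454 and 0.0741 RPKM. IVL had 1 read in siNC and 0 in siLINP1. Other genes of the list were well read, among them ITGB4 at 51.4 and 41.6 RPKM, ITGA6 at 40.9 and 54.1 RPKM, LAMB3 at 23.1 and 21.7 RPKM, and PERP at 14.3 and 21.1 RPKM. KRT14 was at 7.89 and 3.46 RPKM, or -1.27 on the log2 scale, and COL17A1 at 1.51 on that scale, so the list held differences in both directions. The summed level of this list was 157 RPKM in siNC and 162 RPKM in siLINP1, against 2705 and 2132 RPKM for 14 mesenchymal markers. Most of the latter sum came from VIM (1519 and 1278 RPKM), S100A4 (596 and 399 RPKM) and SPARC (505 and 382 RPKM). In both libraries, 4 of the 14 were under 1 RPKM. Of the 13 mesenchymal markers with at least 10 reads in both libraries together, 11 were lower in siLINP1, against 10350 of all 19840 such genes. For 10 of the 13 the interval lay below no change, against 25.6% of the 19840 genes. The 8 blood cell markers summed to 50.4 and 46.6 RPKM, nearly all of it CD68, with CD3E and HBB at 0 reads. The 5 endothelial markers summed to 1.24 and 0.792 RPKM. The part of these marker differences in the results that follow was not tested.

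Of the 10 BCL2 family genes, 2 were more than 1.5-fold higher in siLINP1-treated cells, PMAIP1 and BCL2, and 0 were more than 1.5-fold lower. Among the 19840 genes with at least 10 reads in both libraries together, 14.4% were more than 1.5-fold higher and 13.0% more than 1.5-fold lower. Among the 13336 genes with at least 100 reads, a depth that all 10 genes reached, these shares were 8.72% and 6.77%. The whole interval lay above 1.5-fold for PMAIP1 alone, a position held by 3.98% of the 19840 genes and 4.18% of the 13336. The interval lay above no change for 5 of the 10, PMAIP1, BBC3, MCL1, BCL2L1 and BCL2 (23.0% of the 19840 genes and 28.8% of the 13336). It lay below no change for 2 of the 10, BAD and BAX (25.6% and 33.4%). The median log2 fold change of the 10 was 0.14, against -0.023 over all 19840 genes. The genes of the family did not all differ in one direction. In these bulk libraries, a change in the number of cells of one kind and a change in RNA per cell cannot be told apart.

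**Figure D1:**
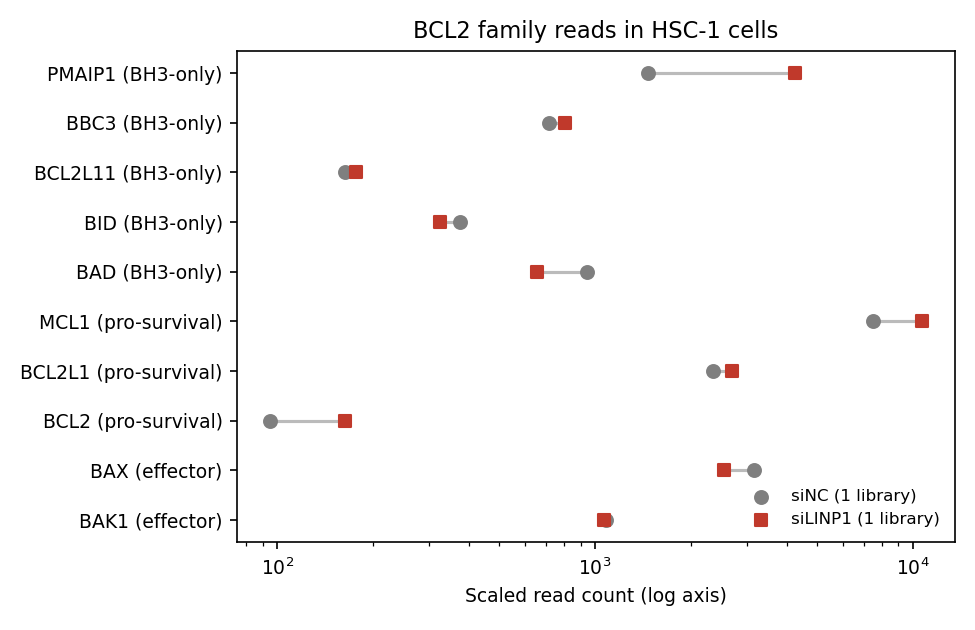
Scaled reads of the 10 BCL2 family genes (log axis) in the siNC library (circles) and the siLINP1 library (squares), 1 library each. PMAIP1 has the widest gap, from 1471 to 4251 scaled reads, while the points of BAK1 lie nearly on each other.

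PMAIP1 was the BH3-only gene with the largest difference. It encodes NOXA, a small protein that binds MCL1 and promotes its degradation, and it lies at chr18:57567192-57571538 on the plus strand (GRCh37, as are all gene positions here). PMAIP1 was read 1582 times in siNC and 3953 times in siLINP1, despite the smaller total of the latter. The difference was 1.53 on the log2 scale (1.45 to 1.62), or 2.89-fold. Of the 13336 genes with at least 100 reads, 120 had a larger log2 fold change. No other gene of the table overlaps PMAIP1.
BBC3 (chr19:47724079-47736023, minus strand) encodes PUMA, a BH3-only protein that binds all of the pro-survival proteins. Its reads numbered 772 in siNC and 746 in siLINP1. The log2 fold change, 0.16 (0.013 to 0.31), barely cleared no change, and 4167 of the 13336 genes had a larger value. The intervals of PMAIP1 and BBC3 did not overlap.
BCL2L11 (chr2:111878491-111926022, plus strand) encodes BIM, which activates BAX and BAK1 directly. With 176 reads in siNC against 165 in siLINP1, its log2 fold change was 0.12, and the interval (-0.20 to 0.43) contained no change. A difference within those bounds was not detectable at this depth. The count per gene sums the BIM isoforms.
BID (chr22:18216906-18257431, minus strand) links death receptors and caspase-8 to mitochondria once its protein is cleaved. It was read 405 times in siNC and 303 times in siLINP1, and its interval reached just past no change (-0.21, -0.43 to 0.0092).
BAD (chr11:64037300-64052176, minus strand) encodes a BH3-only protein that survival kinases inactivate by phosphorylation. Its 1013 reads in siNC stood against 611 in siLINP1, the lowest ratio among the 10 genes. On the log2 scale this was -0.52 (-0.67 to -0.37), just short of the 1.5-fold line at -0.58. BAD shares 366 bases with GPR137 on the opposite strand, which had 928 and 827 reads and a log2 fold change of 0.043. Reads of the shared stretch cannot be assigned, because the strand setting of the counting is not given in the sources used here.

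All 3 pro-survival genes had intervals above no change. MCL1 (chr1:150547027-150552214, minus strand) encodes a short-lived protein whose loss NOXA accelerates, and it was the most read of the family, 8051 times in siNC and 9933 times in siLINP1. Its log2 fold change was 0.51 (0.47 to 0.56), short of 1.5-fold, although scaling by the total count put it past that line at 0.59.
BCL2L1 (chr20:30252255-30311802, minus strand) encodes BCL-XL and, by alternative splicing, the shorter pro-apoptotic BCL-XS, which counts per gene do not separate. Its reads were nearly equal in number, 2528 in siNC and 2515 in siLINP1, which after scaling is 0.20 on the log2 scale (0.12 to 0.28). The lncRNA ABALON shares 1903 bases with it on the opposite strand, with 884 and 849 reads and a log2 fold change of 0.15 (0.014 to 0.29). Reads of both genes cannot be told apart in that stretch.
BCL2 (chr18:60790579-60986613, minus strand), the founding member, was the least read of the 10, with 102 reads in siNC and 152 in siLINP1. Its log2 fold change, 0.78, was the second largest, but the interval of 0.41 to 1.16 reached below the 1.5-fold line.

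The effectors did not share the direction of the pro-survival genes. BAX (chr19:49458117-49465055, plus strand) was read 3403 times in siNC and 2367 times in siLINP1, or -0.31 on the log2 scale (-0.39 to -0.24). BAK1 (chr6:33540323-33548070, minus strand) was read 1160 and 994 times. Its log2 fold change of -0.013 (-0.14 to 0.11) was 0.069 when the libraries were scaled by total count, and was also above 0 with TMM factors (0.010) and with protein-coding genes only (0.018). Of the 10 genes, BAK1 was the only one whose sign depended on a setting tried.

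**Figure D2:**
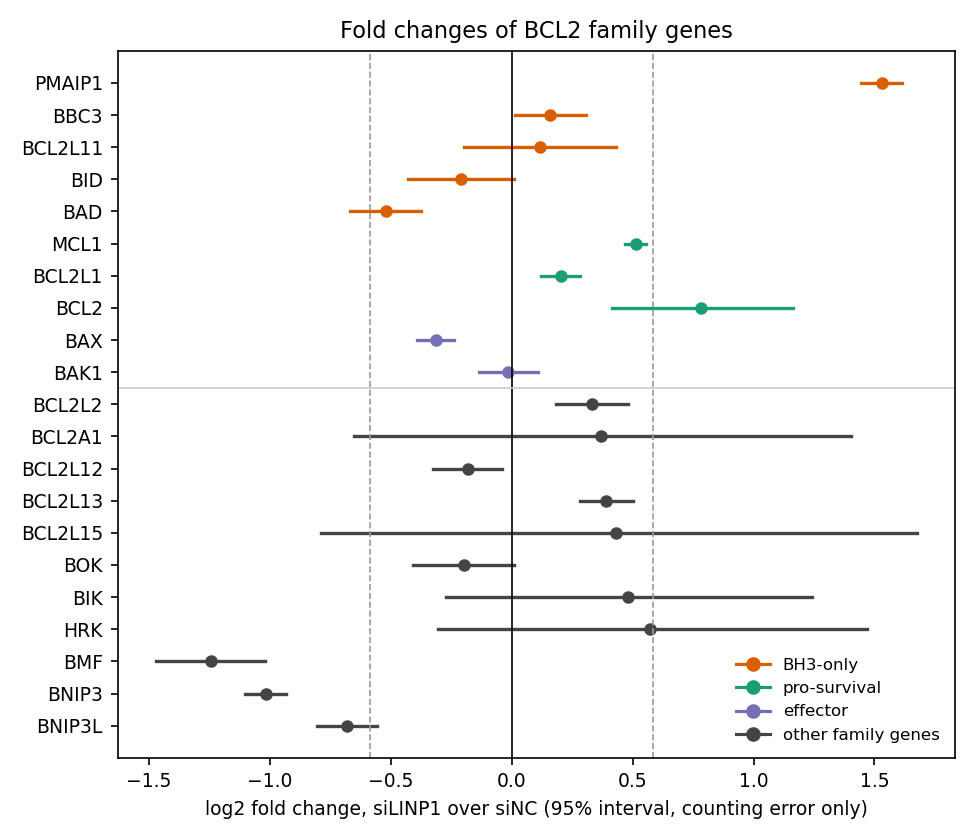
Log2 fold changes (siLINP1 over siNC, horizontal axis) with 95% intervals of counting error for the 10 BCL2 family genes, above the grey line, and for 11 other family genes with at least 10 reads, below it. Dashed lines mark 1.5-fold, and PMAIP1 at 1.53 lies opposite BMF at -1.24 and BNIP3 at -1.02.

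Levels can be compared between genes only per length, so the authors' RPKM values were used, each with an exact Poisson interval. RPKM is scaled by the total count, which raises siLINP1 against siNC by 0.082 on the log2 scale relative to the size factors. In siNC, BAX stood highest at 138 RPKM, followed by MCL1 at 105 RPKM. BAD at 44.0, PMAIP1 at 43.4 and BCL2L1 at 39.9 RPKM came next, and the intervals of PMAIP1 overlapped those of BAD and of BCL2L1. BAK1 (28.1 RPKM), BBC3 (19.6) and BID (8.09) followed without overlap. BCL2L11 at 1.5 RPKM and BCL2 at 0.818 RPKM were lowest in siNC. In siLINP1, MCL1 led at 158 RPKM and PMAIP1 at 133 RPKM stood above BAX at 118 RPKM, with no overlap among these intervals. BCL2L1 stood at 48.5 RPKM, and BAD at 32.5 RPKM could no longer be separated from BAK1 at 29.5 RPKM. BBC3 (23.1 RPKM) and BID (7.40 RPKM) kept the seventh and eighth places, and BCL2L11 (1.73 RPKM) and BCL2 (1.49 RPKM) overlapped.
By role, the 5 BH3-only genes summed to 117 RPKM in siNC and 197 RPKM in siLINP1, the 3 pro-survival genes to 145 and 208 RPKM, and the 2 effectors to 167 and 147 RPKM. PMAIP1 supplied 10.1% of the RPKM of the 10 genes in siNC and 24.0% in siLINP1. The other 4 BH3-only genes summed to 73.1 and 64.7 RPKM. BH3-only transcripts were 0.802 times the pro-survival transcripts in siNC and 0.949 times in siLINP1 with PMAIP1 counted, but 0.503 and 0.311 times without it. The ratio of effector to pro-survival transcripts was 1.15 in siNC and 0.708 in siLINP1. The direction of the ratio of BH3-only to pro-survival transcripts therefore rested on PMAIP1.

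**Figure D3:**
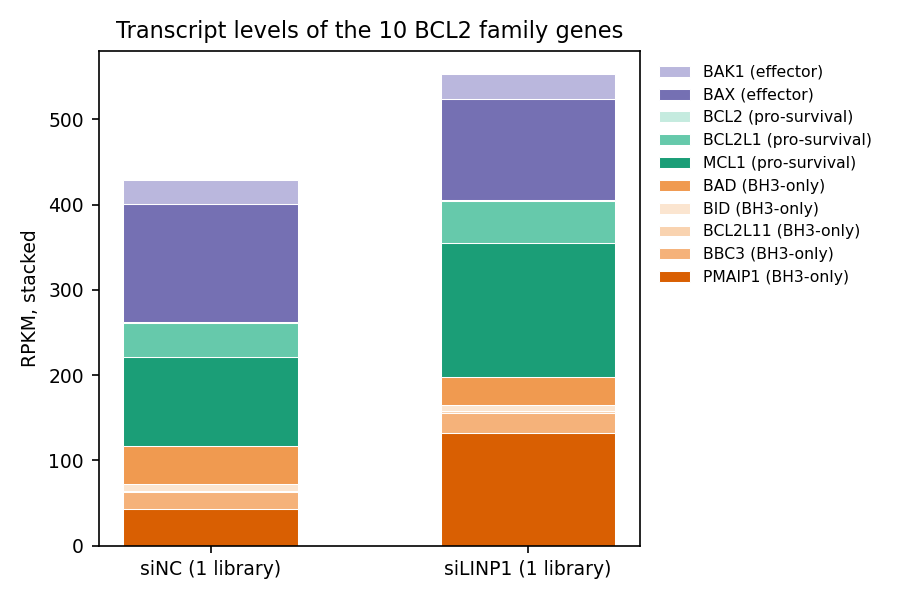
Stacked RPKM of the 10 BCL2 family genes in the siNC and siLINP1 libraries (1 library each), colored by role. The PMAIP1 segment is 43.4 RPKM in siNC and 133 RPKM in siLINP1, the MCL1 segment 105 and 158 RPKM, and the BAX segment 138 and 118 RPKM.

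Ratios between genes of the same library do not depend on how the libraries are scaled. For 15 pairs of a pro-apoptotic and a pro-survival gene, the change of the read ratio from siNC to siLINP1 was computed with a conditional exact interval. The ratio was higher in siLINP1 for 2 pairs, lower for 11 and not separated from no change for 2. The pairs that were higher both hold PMAIP1. Of the 13336 genes with at least 100 reads, 11909 had a smaller log2 fold change than MCL1, 9639 than BCL2L1 and 12699 than BCL2. A lower ratio to these pro-survival genes was thus common among all genes and not particular to pro-apoptotic ones. Relative to MCL1, its main partner, PMAIP1 shifted by 1.02 on the log2 scale (0.92 to 1.11). Relative to BCL2L1, which NOXA binds poorly, PMAIP1 shifted by 1.33 (1.21 to 1.45).
For the other BH3-only genes, no ratio to a pro-survival gene was higher in siLINP1. BBC3 shifted by -0.35 relative to MCL1 (-0.51 to -0.20) and by -0.042 relative to BCL2L1 (-0.21 to 0.13). BCL2L11 shifted by -0.40 relative to MCL1 (-0.71 to -0.078) and by -0.086 relative to BCL2L1 (-0.41 to 0.24). BAD shifted by -0.72 relative to BCL2L1 (-0.89 to -0.55), and by -1.30 relative to the sparsely read BCL2 (-1.71 to -0.90).
For the pore formers, BAX shifted by -0.52 relative to BCL2L1 (-0.63 to -0.41) and by -1.10 relative to BCL2 (-1.48 to -0.72). BAK1 shifted by -0.53 relative to MCL1 (-0.66 to -0.40), the protein that restrains BAK1 in resting cells. Pairs that name the same gene share its reads and are not independent.

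**Figure D4:**
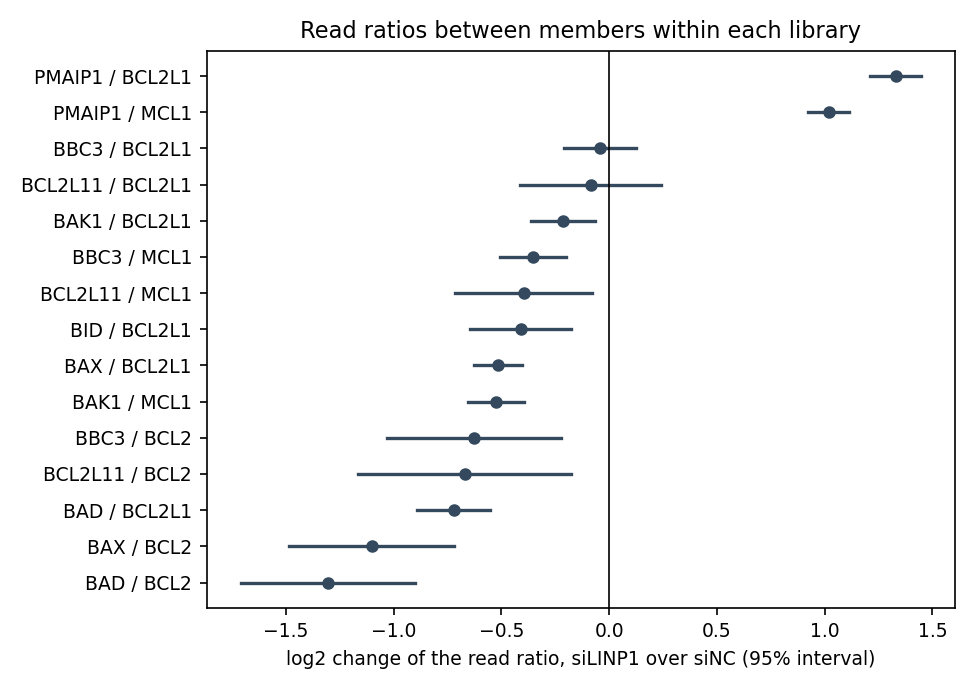
Change in the read ratio of a pro-apoptotic gene to a pro-survival gene (log2, siLINP1 over siNC) with 95% conditional exact intervals, for 15 pairs. PMAIP1 over BCL2L1 at 1.33 and PMAIP1 over MCL1 at 1.02 are the pairs above 0, and BAD over BCL2 at -1.30 lies lowest.

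Among 13 other genes of the family, 11 had at least 10 reads. Of these 11, 0 were more than 1.5-fold higher and 3 were more than 1.5-fold lower, against 14.4% and 13.0% of all genes. The 3 were BMF, BNIP3 and BNIP3L. BMF encodes a BH3-only protein that is held on the dynein light chain DYNLL2 of the cytoskeleton. BMF was read 608 times in siNC and 222 times in siLINP1, or -1.24 on the log2 scale (-1.47 to -1.02), and 60 of the 13336 genes with at least 100 reads had a lower value. BNIP3 and BNIP3L encode BH3-like proteins of the mitochondrial membrane that recruit autophagosomes and are known to be induced by hypoxia. BNIP3, with 3607 reads in siNC against 1541, was at -1.02 (-1.10 to -0.93), and BNIP3L, with 1477 against 797, at -0.68 (-0.81 to -0.56). Of the BH3-only genes, PMAIP1 was thus more than 1.5-fold higher and BMF more than 1.5-fold lower in siLINP1. With intervals clear of no change but values short of 1.5-fold, BAD was lower and BBC3 higher.
The pro-survival relative BCL2L2 (BCL-W) was read 721 and 785 times and was at 0.33 (0.18 to 0.48), like MCL1 and BCL2L1 in direction. BCL2L13 was also above no change, at 0.39 (0.28 to 0.50), and BCL2L12 below it, at -0.18 (-0.32 to -0.038), which no longer held by total count. BOK, an effector-like protein, had 442 and 333 reads and an interval (-0.41 to 0.0094) that included no change. BIK, HRK, BCL2A1 and BCL2L15 had 26 to 64 reads in both libraries together, and their intervals all included no change. Of these, HRK at 0.57 passed the 1.5-fold line under the other scalings. BCL2L10 had 1 read in siNC and 0 in siLINP1, and BCL2L14 had 3 and 1, so no fold is given.

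Genes of 14 transcription factors known to act on PMAIP1, BBC3 or BCL2L11 were read in the same libraries. Of these, 6 were more than 1.5-fold higher (14.4% of all genes) and 1 was more than 1.5-fold lower (13.0% of all genes). ATF3, a stress-induced bZIP factor that binds the PMAIP1 promoter together with ATF4, was read 1197 times in siNC and 4929 times in siLINP1, or 2.25 on the log2 scale (2.16 to 2.34). DDIT3, which encodes CHOP of the UPR, was at 1.07 and its activator ATF4 at 0.21 (0.17 to 0.25). IRF1, MYC and JUN were at 0.94, 0.90 and 0.85 with intervals wholly above the 1.5-fold line, and TP63, with 6 and 8 reads, at 0.62 with an interval from -1.09 to 2.43. TP73, which can act on PMAIP1 and BBC3, was read 87 and 43 times and was at -0.81 (-1.37 to -0.26). FOXO3, which acts on BCL2L11 and BBC3, was at 0.13 (-0.039 to 0.31) and had an interval above no change by total count, and HIF1A at 0.12 (0.075 to 0.16).

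Promoter windows from RefSeq (GRCh38.p14, 250 bases before to 50 after each start site, with several windows for some genes) were searched for letters that factors of this group read, on both strands. Windows were matched for 9 of the 10 genes, and none was matched for MCL1. The full cyclic AMP response element (CRE), TGACGTCA, was in a window of 2.25% of all 27305 genes with a window and of none of the 9 genes. Its core TGACG, which lies inside the full element and is read as CGTCA on the other strand, was in a window of 28.4% of all genes and of 5 of the 9, PMAIP1, BAD, BCL2, BCL2L1 and BAX. Of the 5, PMAIP1, BCL2 and BCL2L1 had intervals above no change and BAD and BAX below it. Whether the core bears on these differences was not tested. The stretches of PMAIP1, BAD and BAX are shown as examples of both directions. They are given 5′ to 3′ on the strand of the gene, with the core in capitals.
PMAIP1: agtttccctaCGTCAccagggaagt
BAD: cctacccgagTGACGttccgagagg
BAX: gacagtcacgTGACGggaccaaacc
The PMAIP1 stretch lies at chr18:59899931-59899955 on the plus strand, with the core starting 55 bases before the start site. The BAD stretch, at chr11:64284744-64284768 on the minus strand, has its core 54 bases before the more upstream of its start sites. The BAX stretch lies at chr19:48954731-48954755 on the plus strand, and its core shares bases with an E-box, CACGTG. The BAX window holds 4 E-boxes, which were found for 8.77% of all genes and, among the 9, for BAX, BBC3 and BID. The AP-1 element TGANTCA was found for 9.37% of all genes and for BBC3 alone among the 9. The GC box GGGCGG was found for 48.3% of all genes and for 7 of the 9. The composite element TGATGNAA, which C/EBP and ATF proteins read, was found for 4.46% of all genes and for none of the 9. A match of letters describes the sequence and not binding.

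Of 19 genes whose products bind BCL2 proteins or control their turnover, 0 were more than 1.5-fold higher and 2 were more than 1.5-fold lower, VDAC1 and SFN, against 8.72% and 6.77% of the genes with at least 100 reads. Of the same genes, 28.8% had intervals above no change and 33.4% below it. All 5 genes of ubiquitin ligases and the deubiquitinase that act on MCL1 and its relatives had intervals above no change, but with small values. They were MARCH5 at 0.49, FBXW7 at 0.41, USP9X at 0.25, BTRC at 0.21 and HUWE1, read 11858 and 10879 times, at 0.085. The 3 VDAC genes, which encode porins of the outer mitochondrial membrane, had intervals below no change. VDAC1 was read 5740 times in siNC and 2714 times in siLINP1, or -0.87 on the log2 scale (-0.94 to -0.81). VDAC3 was at -0.58 and VDAC2, which binds BAK1 and BAX, at -0.26. Of the 7 genes of 14-3-3 proteins, which hold phosphorylated BAD in the cytosol, 5 had intervals below no change and 1, YWHAG at 0.33, above it. SFN, also a squamous marker, was the lowest of these at -0.73 (-1.03 to -0.42), and YWHAZ, the most read of them, was at -0.0018, with an interval above no change by total count. TPT1, with the most reads of this list, was at -0.25, and DYNLL2, the anchor of BMF, at -0.039 (-0.20 to 0.12). The other dynein light chain of the list, DYNLL1, was at -0.32 (-0.41 to -0.24).

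Genes that act once the outer membrane is open differed little. Of 8 such genes, 0 were more than 1.5-fold higher or lower (8.72% and 6.77% of the genes with at least 100 reads), and their log2 fold changes ran from -0.32 to 0.056. ENDOG (-0.32), AIFM1 (-0.30), APAF1 (-0.30) and DIABLO (-0.18) had intervals below no change, which held for 33.4% of the genes with at least 100 reads. CYCS, which encodes cytochrome c, had 1970 and 1732 reads and was at 0.024 (-0.070 to 0.12), and HTRA2, XIAP and CASP9 also included no change. These small values depended on the scaling. By total count, CYCS, HTRA2 and XIAP had intervals above no change and DIABLO was no longer below it.

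**Figure D5:**
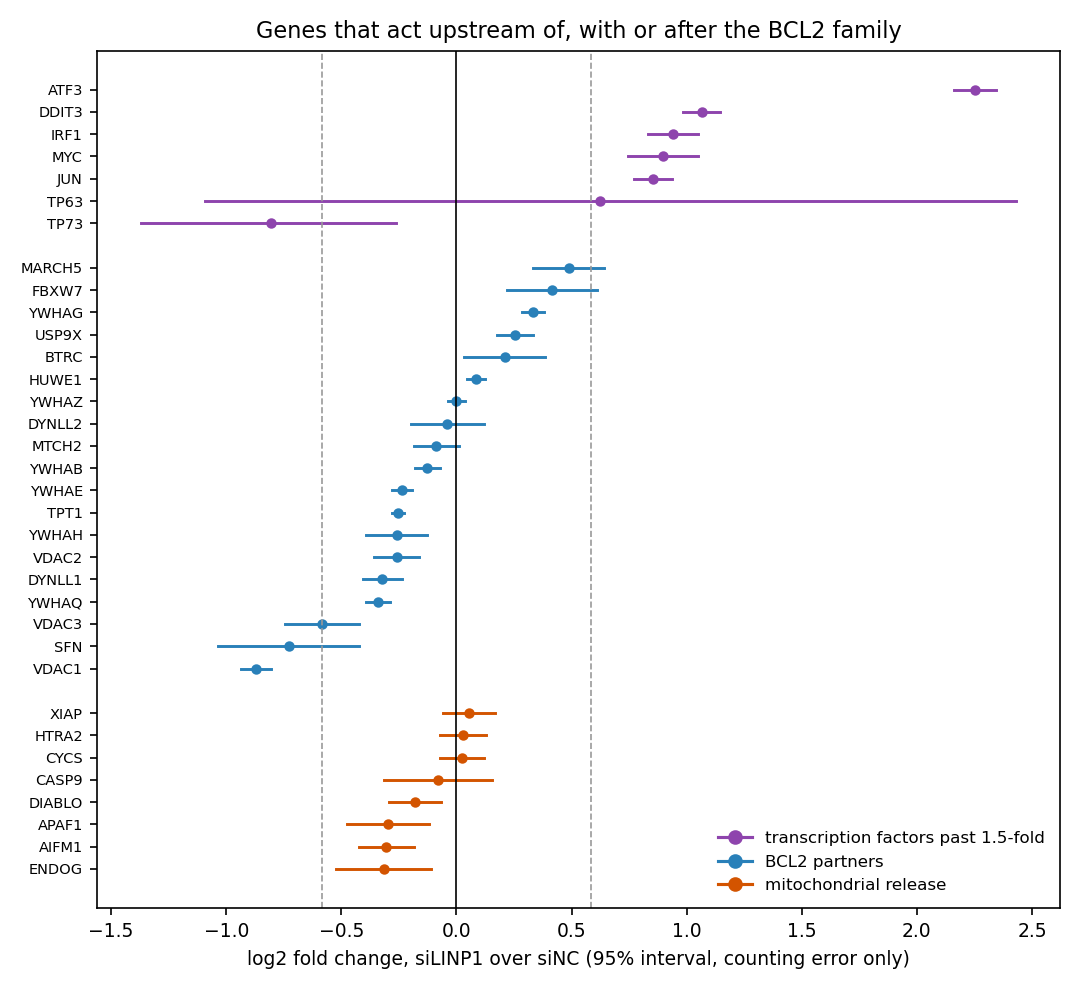
Log2 fold changes (siLINP1 over siNC, horizontal axis) with 95% intervals of counting error for the transcription factor genes past 1.5-fold, 19 partner genes and 8 genes of the steps after mitochondrial release. Dashed lines mark 1.5-fold, with ATF3 at 2.25 highest and VDAC1 at -0.87 lowest, and all 8 release genes lie between the lines.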

How the data were processed

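The authors sequenced 1 siNC and 1 siLINP1 library of HSC-1 RNA on an Illumina HiSeq instrument. Per the methods of the study, reads were aligned to GRCh37/hg19 with Tophat2 and counted with HTSeq, and the submitters' processing notes also list HISAT, HISAT2 and Bowtie2. Versions, gene annotation, counting mode and strand setting are not given in the sources used here. The deposited values are raw read counts per gene, and the deposited RPKM values are the authors' counts per gene length and total count, which was checked by recomputing them. The 12 further columns of per-sample values in the table were not used.

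Size factors by the median of ratios brought both libraries to a common scale, genes with fewer than 10 reads in both libraries together were left out of counts of genes, and no pseudocount was added. Calls were values past 1.5-fold. Intervals of folds are Clopper-Pearson, those of RPKM exact Poisson and those of read ratios conditional exact, at 95%. They cover counting error only and treat each read as independent. Reads without molecular identifiers are not independent molecules, so the intervals can be too narrow even for that error. No test was made, as 1 library per condition gives no estimate of the spread. Named were the 10 genes, LINP1, DDIT3, genes that overlap a family gene and, from each list, those past 1.5-fold with an interval on that side of no change and the 3 most read. Others were named after their values were seen, and some results on single genes are not reported here. The genes and lists were chosen with earlier results of these data known. Alternatives were scaling by total count or edgeR TMM factors, pseudocounts of 1 and 5, minimums of 1 and 100 reads, and protein-coding genes only. The calculations were tested on simulated counts. The software was R 4.3.3 with edgeR 4.0.16 (TMM factors only) and Python 3.11.15 with matplotlib 3.10.9, scipy 1.17.1, numpy 2.4.6 and pandas 2.3.3.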

Additional observations from a re-analysis of the deposited data

How the results depend on the processing

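Of the 10 BCL2 family genes, 9 kept their direction under all 7 alternatives, and BAK1 did not. The log2 fold change of PMAIP1 ranged from 1.53 to 1.61 and that of BAD from -0.52 to -0.44. Scaling by the total count moved MCL1 to 0.59, past 1.5-fold, BCL2L1 to 0.28 and BAX to -0.23, so that 3 of the 10 genes were more than 1.5-fold higher. Under that scaling, 3314 of the 19840 genes with at least 10 reads were more than 1.5-fold higher and 2069 more than 1.5-fold lower. The read ratios between genes did not change with the scaling, by construction. Among the other family genes, 1 (HRK) was more than 1.5-fold higher under scaling by total count, under TMM factors and with protein-coding genes only, and 5 were more than 1.5-fold lower with a minimum of 1 read, which adds BCL2L10 and BCL2L14. Over all genes, 2863 were more than 1.5-fold higher and 2573 lower, against 7048 and 6456 with a minimum of 1 read, 1163 and 903 with a minimum of 100 reads, and 1673 and 1346 among protein-coding genes, because the set of genes differs. No paired analysis was possible because each condition had 1 library, and for the same reason no replicate could be left out. Depth limits BCL2 and BCL2L11 most, with 254 and 341 reads in both libraries together.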

Other observations

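The nearest gene with at least 10 reads on either side of each of the 10 BCL2 family genes was read as a check of position, which gave 20 neighbors that do not overlap them. Of these, 2 were more than 1.5-fold higher and 3 were more than 1.5-fold lower in siLINP1, near the 14.4% and 13.0% of all genes. PMAIP1 lies in a stretch with few transcripts, with CCBE1 202547 bases to its left (17 and 4 reads, log2 fold change -1.88, 95% interval -3.91 to -0.26) and a lincRNA 1681440 bases to its right (130 and 180 reads, 0.68, 95% interval 0.35 to 1.02). BCL2L13, itself of the family, is the left neighbor of BID at 3284 bases, and was at 0.39 while BID was at -0.21. Next to MCL1, ADAMTSL4 had 982 and 445 reads (-0.93, 95% interval -1.10 to -0.77) and ENSA had 2250 and 2796 reads (0.52, 95% interval 0.44 to 0.60). ID1, left of BCL2L1, was read 971 and 560 times and was at -0.58 (-0.74 to -0.43). These neighbors were chosen after the data were seen.
Beside ABALON and GPR137, small or sparsely read genes overlap the family genes. MIR3190, inside BBC3, was read 12 times in siNC and 19 times in siLINP1, and ADAMTSL4-AS1, which shares 2 bases with MCL1, was read 11 and 15 times. A further transcript inside BCL2L1 was read 4 and 2 times. MIR3191 inside BBC3, MIR3198-1 inside BID and 2 intronic transcripts of BCL2 had 0 reads in both libraries.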
